A study of Mus musculus with 9 samples.

Results

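The transcription factor p53 and 9 of its known direct partners and targets were examined in mouse embryonic stem cells after a short exposure to inhibitors of the kinase GSK3. The 10 genes, Trp53, Mdm2, Mdm4, Ccng1, Trp53inp1, Phlda3, Zmat3, Plk2, Bbc3 and Bax, were taken by symbol from a count table of 52264 genes. All 10 were present in it and all 10 passed the low-count filter, which kept 15366 genes. The cells carry the genotype label beta-catenin-/- in every group, so no group has unedited cells. All were expanded on dishes with feeder cells, in medium holding 40 ng/ml LIF, 3 µM CHIR-99021 and 1 µM PD03, which blocks MEK, so the control cells had also been exposed to CHIR earlier. After a night in N2B27, a serum-free medium, they were left untreated (control), or given BRD0705, an inhibitor selective for GSK3α, or CHIR, which inhibits GSK3α and GSK3β, for 30 min. The labels give no dose for this step. Each group had 3 libraries. Nothing in the labels says that they came from separate cultures, so p-values measure the spread between these libraries, which may be technical.

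p53 is held low in unstressed cells by MDM2, an E3 ubiquitin ligase that marks it for degradation, and by MDM4, a relative of MDM2 that covers its activation domain. DNA damage or other stress releases p53, which then binds paired half-sites in DNA and raises a group of genes for cell cycle arrest, cell death and repair, among them Mdm2 itself. Because most of this control acts on the protein, the transcripts of its targets are the usual readout of p53 activity in RNA sequencing. Embryonic stem cells are known for abundant p53, and GSK3 is known to phosphorylate both p53 and MDM2.

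The libraries held 17359422 to 20773337 counts. Ctnnb1, the gene of the genotype label, was read in all 9 libraries at 302.6 to 371 CPM (counts scaled to a library size of 1000000), and did not pass the test in any comparison. The count table does not show which exons these reads came from. Summed over 9 genes, the stem cell markers stood at 4852 to 5204 CPM. The 12 markers of feeder fibroblasts summed to 3139 to 3654 CPM in control, 3948 to 4072 with BRD0705 and 3497 to 4261 with CHIR. All 12 were above 0, and all 12 were higher than control under each inhibitor, with a median log2 fold change of 0.24 for BRD0705 and 0.21 for CHIR. Of these, 3 passed the test with BRD0705 and 4 with CHIR, against 1.22% and 6.3% of all tested genes. The 6 primitive endoderm markers, 5 of them tested, summed to 20.6 to 20.9 CPM in control, 21.2 to 24.9 with BRD0705 and 16.8 to 18.7 with CHIR. Pdgfra and Sox7 among them were called higher with BRD0705 than with CHIR. The 5 neural markers, 3 of them tested, summed to 41.7 to 46.9, 45.3 to 48.2 and 37.8 to 41.5 CPM. Sox1 among them was called lower with CHIR than in control, and higher with BRD0705 than with CHIR. The 6 trophoblast markers, 4 of them tested, summed to 32.7 to 38.1, 32.7 to 35.4 and 29.5 to 35.1 CPM with none called. Of the stem cell markers, Esrrb and Tdgf1 were called lower with BRD0705 than with CHIR, and Esrrb higher with CHIR than in control. Of all tested genes, 6.3% passed for CHIR against control and 7.77% between the inhibitors. Fibroblasts also express p53 and its targets, so each value below sums over stem cells and feeders, and fewer cells of a type and less RNA per cell cannot be told apart. Counts also moved with the GC content of transcripts, and differently so between libraries. The rank correlation of a library's deviation with GC content, across genes, was -0.287 to 0.187 in control, 0.079 to 0.279 with BRD0705 and -0.121 to -0.064 with CHIR.

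The sequences below are shown because the half-site is the DNA element that p53 binds, and they give the exact matches found near annotated starts. Promoter windows of 300 bases, from 250 before to 50 after each annotated start (RefSeq, GRCm38.p6), were at hand for 8 of the 10 genes, in 11 windows. Trp53inp1 and Zmat3 had no entry. The p53 half-site, a degenerate pattern of 10 bases that reads the same on both strands, was matched exactly in 4 of the 8 genes. Each of these had 1 window, so the match was in 4 of the 11 windows. Of all 32851 promoter windows, 8.36% held such a match. No window of the 10 genes held 2 half-sites within 13 bases of each other, as 0.0731% of all windows did. The matches are printed with 10 bases on either side, the half-site in capitals, and for comparison the window at the upstream start of Cdkn1a, the arrest gene most used as a p53 readout, which did hold 2.
Trp53: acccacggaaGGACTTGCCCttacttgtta
Mdm2: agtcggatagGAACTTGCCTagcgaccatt
Ccng1: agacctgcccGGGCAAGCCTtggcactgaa
Bax: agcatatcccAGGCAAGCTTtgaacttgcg
Cdkn1a: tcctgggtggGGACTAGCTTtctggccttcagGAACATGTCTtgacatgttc
The windows were chr11:69580109-69580408 on the plus strand for Trp53, chr10:117710709-117711008 on the minus strand for Mdm2, chr11:40755237-40755536 on the minus strand for Ccng1, chr7:45466849-45467148 on the minus strand for Bax and chr17:29090729-29091028 on the plus strand for Cdkn1a. Relative to the start, the match began at -75 in Trp53, -186 in Mdm2, -185 in Ccng1 and -201 in Bax. A match is a description of letters and not a bound site. In Cdkn1a, the 10 bases right after the downstream half-site differ from the pattern only at their first base, and so stay in lower case. The capitals there mark exact matches and need not be the pair that p53 binds. Sequence outside these windows and sites with a mismatch were not searched, so the lack of a match does not show that a gene lacks a p53 site.

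Trp53 was by far the most abundant of the 10 transcripts. Per kilobase of its longest annotated transcript it stood at 246 ± 16.1 CPM (SD, n = 9), at percentile 99.5 of all tested genes by CPM. Bax followed at 111 ± 6.29 CPM per kb, then Ccng1 at 69.8 ± 2.098, Mdm2 at 28.2 ± 1.52, Phlda3 at 17.1 ± 1.21, Bbc3 at 14.1 ± 0.641, Trp53inp1 at 12.98 ± 1.38, Zmat3 at 9.57 ± 0.427, Plk2 at 8.03 ± 0.472 and Mdm4 at 7.95 ± 0.704 CPM per kb (SD, n = 9 each). Neighbours in this order did not overlap over the 9 libraries, except Bbc3 with Trp53inp1, Zmat3 with Plk2, and Plk2 with Mdm4. Per kb, the inhibitor of p53 with the ligase, Mdm2, was therefore more abundant than its relative Mdm4 in every library. Between libraries the genes were steady. The coefficient of variation over all 9 was lowest for Ccng1, at 3.01%, and highest for Trp53inp1, at 10.6%.

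No gene of the 10 passed the test in any of the 3 comparisons, by the quasi-likelihood test of edgeR, with p-values adjusted over all 15366 genes (Benjamini-Hochberg, threshold 0.05). Of all genes tested, 1.22% passed for BRD0705 against control, 6.3% for CHIR against control and 7.77% for BRD0705 against CHIR, so 0 of 10 is near the background. At an unadjusted p under 0.05 there was 1 of 10 genes in each comparison, against 15.9%, 20.5% and 22.5% of all genes. DESeq2 called 0, 0 and 1 of the 10, and limma on the deposited normalized values did the same. Over all 15366 genes DESeq2 called 489, 928 and 1129, and limma on log2(normalized value + 1) called 199, 994 and 1282. The median log2 fold change of the 10 was -0.01 for BRD0705, 0.01 for CHIR and -0.02 for BRD0705 against CHIR, where the median over all genes was -0.00, -0.01 and 0.00. Of the 30 differences, 27 were under 10%. The largest was 14.04%, in Mdm4. The 95% intervals ran from -22.2% to 19.4% over all 30, and 3 of them left out 0, before any correction for the number of genes tested.

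**Figure D1:**
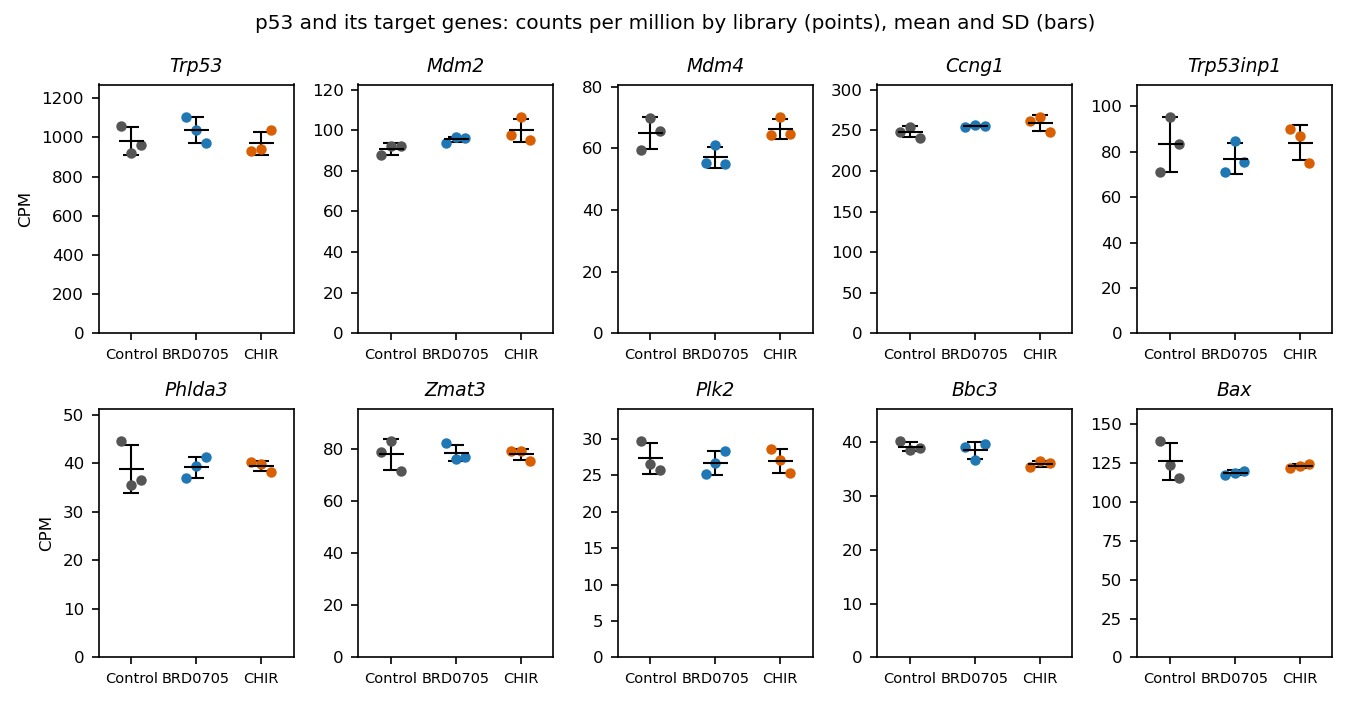
Level in CPM (vertical axes, from 0) of the 10 genes in each library, 3 points per group, with the mean and SD as black bars. Trp53 lies between 919.5 and 1104 CPM in all 9 libraries, Mdm2 is lowest in the 3 control libraries, and Mdm4 is lower in each BRD0705 library than in each CHIR library.

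Trp53 (chr11:69580348-69591873, plus strand) was at 1059, 919.5 and 961 CPM in control replicates 1 to 3. It was at 1104, 1036 and 970.2 CPM with BRD0705, and at 931, 941 and 1038 CPM with CHIR. The groups overlap, and control replicate 1 lies above 2 of the BRD0705 libraries. The log2 fold change was 0.08 ± 0.06 for BRD0705 and -0.01 ± 0.06 for CHIR (SE; edgeR adjusted p 0.583 and 0.93). The intervals allow a difference from -3.55 to 16.03% for BRD0705 and from -9.77 to 8.55% for CHIR. Exons of Trp53 overlap those of Wrap53 on the opposite strand, and the use of strand in counting is not given in the sources used here, so part of these reads could belong to Wrap53.

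Mdm2 (chr10:117688875-117710758, minus strand), both a p53 target and the main brake on p53, was the only one of the 10 whose control libraries all lay below both inhibitor groups. It stood at 87.6, 92.5 and 92.2 CPM in control, at 93.9, 96.4 and 95.98 CPM with BRD0705, and at 97.7, 106.5 and 95.4 CPM with CHIR. CHIR replicate 2 was the highest of the 9. The difference did not pass the test, with a log2 fold change of 0.14 ± 0.06 for CHIR and 0.07 ± 0.06 for BRD0705 (SE; edgeR adjusted p 0.164 and 0.578). These are differences of 10.02% (95% interval 1.39 to 19.4%) and 5.17% (-3.09 to 14.1%). BRD0705 and CHIR differed by -0.06 ± 0.06 (SE; edgeR adjusted p 0.54). With a correction for GC content and transcript length in each library, the CHIR difference was 0.20 and passed the test (edgeR adjusted p 0.0236). With the mean log2 CPM of the feeder markers (the feeder score) as a covariate it was 0.11 (edgeR adjusted p 0.548), and without CHIR replicate 2 it was 0.096 (edgeR adjusted p 0.462). The feeder score differs between the groups, so here and below that covariate cannot separate feeder RNA from treatment.

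Mdm4 (chr1:132986105-133030587, minus strand) came nearest to the threshold, and between the inhibitors rather than against control. Its level was 59.5, 69.7 and 65.5 CPM in control. With BRD0705 it was 55.2, 60.9 and 55.04 CPM, and with CHIR 64.3, 70.1 and 64.6 CPM. The BRD0705 and CHIR libraries do not overlap, while control replicate 1 lies among the BRD0705 libraries and the other control libraries among those of CHIR. BRD0705 was lower than CHIR by 14.04% (95% interval -22.2 to -5.05%), a log2 fold change of -0.22 ± 0.07 (SE; edgeR adjusted p 0.0581). Against control the log2 fold change was -0.19 ± 0.07 for BRD0705 and 0.03 ± 0.07 for CHIR (SE; edgeR adjusted p 0.182 and 0.857).

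The call on Mdm4 between the inhibitors turns on small changes in processing. It passed with DESeq2 (adjusted p 0.0441), with only the 6 libraries of the inhibitors fitted by edgeR (0.0499), with limma on log2(normalized value + 1) (0.047), with no low-count filter in edgeR (0.0239) and with the GC and length correction in edgeR (0.0216). It did not pass with library size alone as the scaling (edgeR adjusted p 0.139) or with the feeder covariate (edgeR adjusted p 0.0879). The size of the difference moved little, from -0.27 to -0.18 over all alternatives. Its transcript has a GC content of 43.1%, and the difference was as large with the GC and length correction, at -0.23. Leaving out CHIR replicate 2 gave the smallest difference, -0.18, and leaving out BRD0705 replicate 2 the largest. Of the 9 fits that left out 1 library, the one without control replicate 1 passed (edgeR adjusted p 0.0341).

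**Figure D2:**
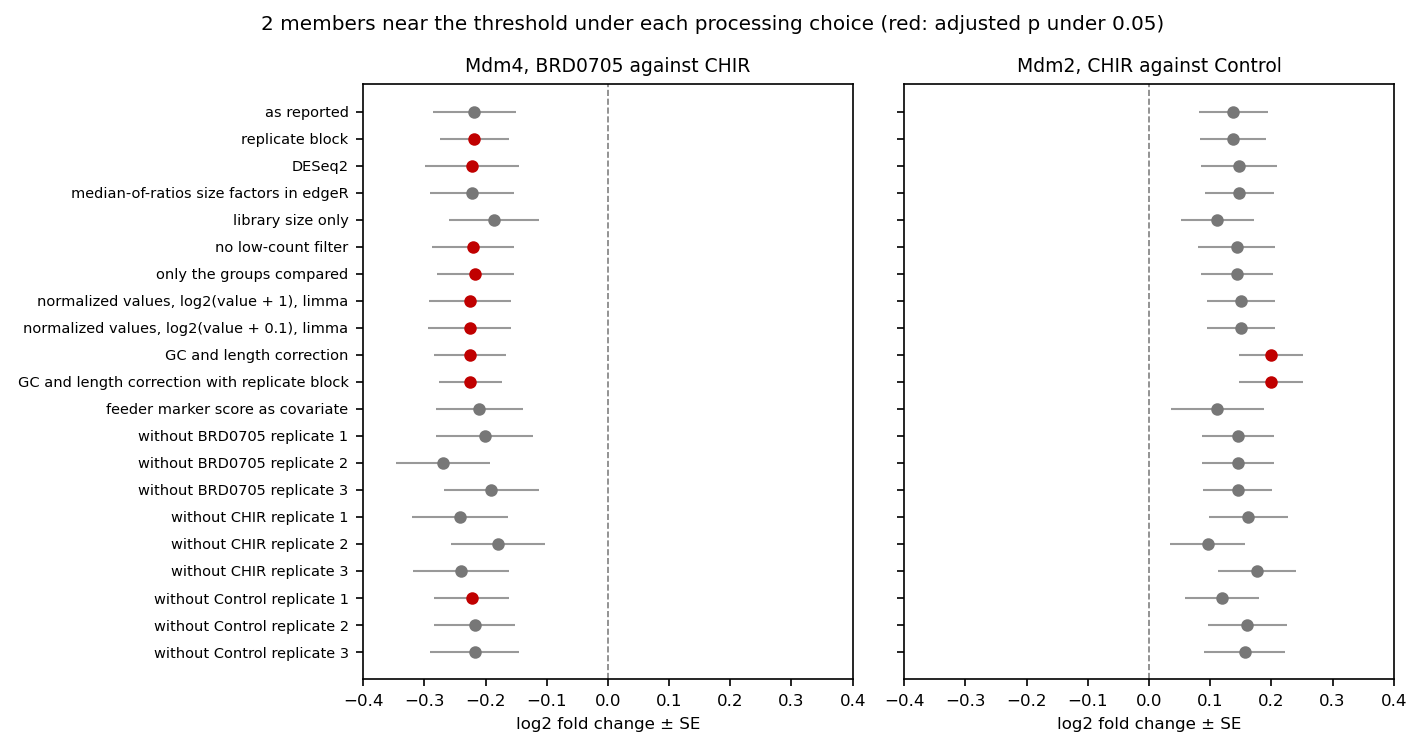
The log2 fold change ± SE (horizontal axes) of Mdm4 for BRD0705 against CHIR and of Mdm2 for CHIR against control, as reported and under each other way of processing (rows); red points passed an adjusted p of 0.05. Mdm4 stays between -0.27 and -0.18 and Mdm2 between 0.096 and 0.20 throughout, on either side of the threshold.

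The targets with roles in arrest and signalling did not separate the groups. Ccng1 (chr11:40748552-40755309), which encodes cyclin G1, a partner of protein phosphatase 2A, stood at 249, 255 and 241 CPM in control, 254, 257 and 256 with BRD0705, and 262, 267 and 248 with CHIR. Its log2 fold change was 0.04 ± 0.05 for BRD0705 and 0.06 ± 0.05 for CHIR (SE; edgeR adjusted p 0.745 and 0.552), and its exons overlap Nudcd2 on the opposite strand. Plk2 (chr13:110395044-110400844), a polo-like kinase gene, had the lowest CPM of the 10, with 29.7, 26.6 and 25.7 in control, 25.1, 26.7 and 28.4 with BRD0705 and 28.6, 27.1 and 25.3 with CHIR. The groups of Plk2 overlapped fully, with differences of -2.12% (95% interval -12.4 to 9.32%) and -1.18% (-11.5 to 10.4%). Phlda3 (chr1:135766085-135769134), whose product opposes the kinase AKT at the membrane, was at 36.9 to 41.2 CPM with BRD0705 and 38.2 to 40.3 CPM with CHIR. Its control libraries were more spread, at 44.6, 35.5 and 36.6 CPM, and enclosed both groups.

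The genes with roles in cell death and stress did not pass the test either. Bbc3 (chr7:16308398-16318334) encodes PUMA, a trigger of apoptosis that acts on proteins of the BCL2 family. It was at 40.2, 38.5 and 38.9 CPM in control, 39.1, 36.7 and 39.6 CPM with BRD0705, and 35.4, 36.5 and 36.1 CPM with CHIR. All CHIR libraries were below all others, by a small margin. The difference from control was -8.13% (95% interval -15.7 to 0.134%), with an edgeR adjusted p of 0.253, and BRD0705 was 6.97% above CHIR (-1.91 to 16.6%; edgeR adjusted p 0.357). With the GC and length correction the sign of the BRD0705 difference from CHIR for Bbc3, a GC-rich transcript at 63.7%, turned to -0.05.

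Bax (chr7:45461695-45466903), which encodes the pore-forming protein downstream of PUMA, was at 139, 124 and 115 CPM in control, 117, 119 and 120.1 with BRD0705 and 122, 123 and 124 with CHIR. The inhibitor groups do not overlap each other, but control encloses both, and the difference between the inhibitors was -3.57% (95% interval -11.8 to 5.48%). Trp53inp1 (chr4:11156441-11174379), a stress protein gene, varied most, with 71.1, 95.3 and 83.5 CPM in control, 71.1, 84.5 and 75.4 with BRD0705 and 89.9, 86.9 and 75.1 with CHIR. Its intervals are the widest of the 10, from -19.2 to 5.54% for BRD0705 and from -11.7 to 15.2% for CHIR. Zmat3 (chr3:32334792-32365665), which encodes an RNA-binding zinc finger protein, was at 71.6 to 82.97 CPM in control, 76.1 to 82 with BRD0705 and 75.4 to 79.2 with CHIR. The intervals for Zmat3 leave room for -7.97 to 10.2% with BRD0705 and -8.54 to 9.49% with CHIR.

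Counted over the 10 genes, the groups did not overlap in 1 gene for BRD0705 against control (Mdm2), against 20.2% of all tested genes. For CHIR against control there were 2 (Mdm2 and Bbc3), against 25.1%, and between the inhibitors 3 (Mdm4, Bax and Bbc3), against 26.7%. These shares are near the background.

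**Figure D3:**
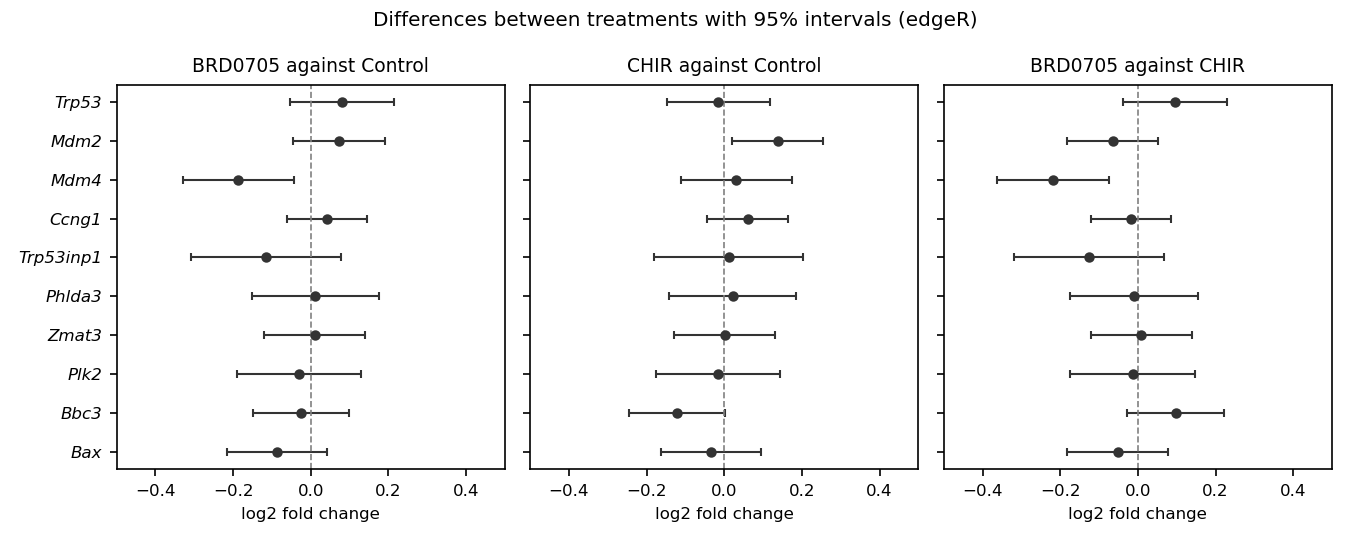
Log2 fold changes of the 10 genes (horizontal axes) in the 3 comparisons, with 95% intervals from the edgeR fit that are not corrected for multiple tests. The intervals of Mdm2 for CHIR, and of Mdm4 for BRD0705 against control and against CHIR, leave out 0, and the other 27 include it.

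The genes whose CPM followed these patterns most closely over the 9 libraries were looked up for the 3 of the 10 with the lowest p. They were ranked by the Pearson correlation of log2 CPM among the 9563 genes whose log2 CPM averaged 3 or more, as a description of libraries that share groups and technical trends. Closest to Mdm4 were Derl2 (r = 0.987), Znrf2 (0.969) and Rab5a (0.959). Closest to Mdm2 were Bloc1s3 (0.95), Pphln1 (0.918) and Rgs19 (0.916), and closest to Bbc3 were Mocs3 (0.96), Bub3 (0.94) and Cpt2 (0.938). Of these 9, Mocs3 and Cpt2 passed the test for CHIR against control, with log2 fold changes of -0.72 and -0.41 (edgeR adjusted p 0.00279 and 0.00516). Mocs3 also passed for BRD0705 against CHIR, with a log2 fold change of 0.70 (edgeR adjusted p 0.00306).

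The wider pathway was read from 6 lists of 120 symbols, of which 110 passed the filter. The lists were chosen with earlier results of these data known, so a share above that of all genes is no test of the pathway. With BRD0705, 4 of the 110 passed the test, 3 higher and 1 lower, or 3.64% against 1.22% of all genes. With CHIR, 8 passed, 5 higher and 3 lower, or 7.27% against 6.3%. Between the inhibitors 15 passed, 9 higher with BRD0705 and 6 lower, or 13.6% against 7.77%. The median log2 fold change over the 110 was 0.00, -0.01 and -0.00. The 62 tested direct targets other than the 10 gave 3 of these calls with BRD0705, 6 with CHIR and 10 between the inhibitors. These are 4.84%, 9.68% and 16.1% of the 62. Their medians were 0.04, 0.01 and 0.02, with 38 of 62 above 0 for BRD0705 and 33 of 62 for CHIR.

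**Figure D4:**
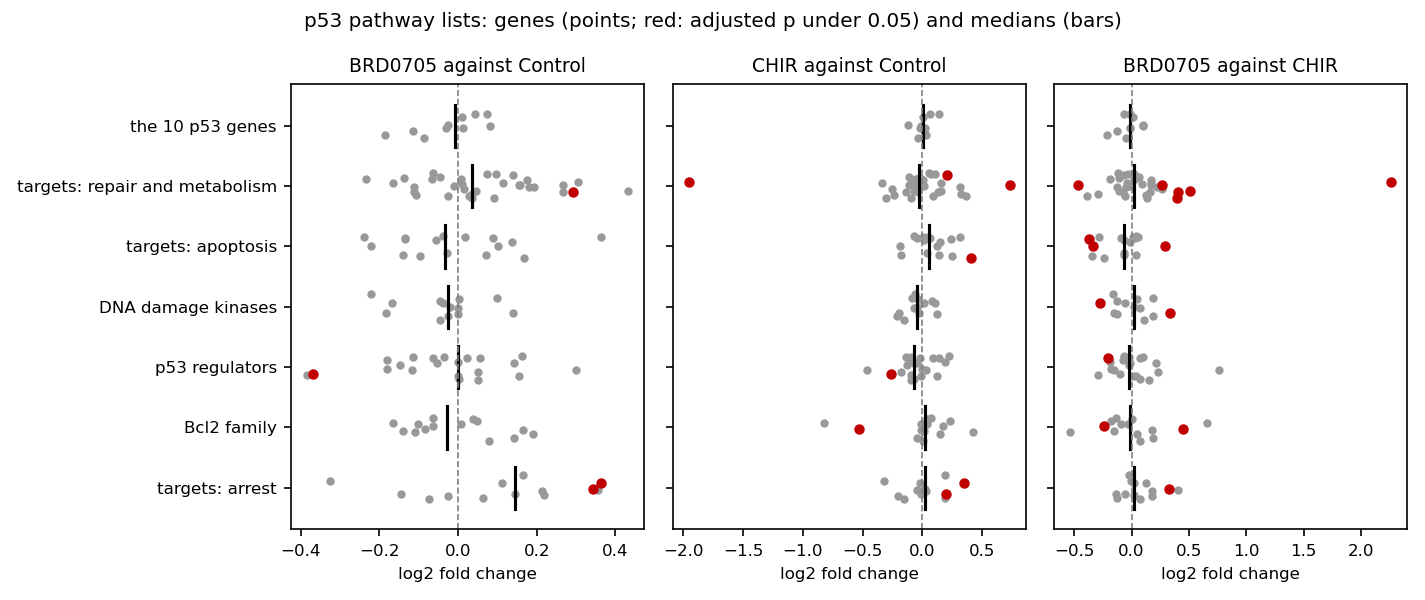
Log2 fold changes (horizontal axes, whose ranges differ between panels) of the 10 genes and of the 110 tested genes of the 6 pathway lists; each point is a gene, red where the adjusted p was under 0.05, and the black bars are list medians. The medians lie between -0.07 and 0.14, and the far points in the CHIR panels are Trp53cor1.

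Cdkn1a, which encodes the cyclin-dependent kinase inhibitor p21, was higher in every inhibitor library than in every control library without passing the test. It was at 145.5, 137.5 and 130 CPM in control, 159.9, 170.3 and 149.9 CPM with BRD0705, and 157, 166 and 151 CPM with CHIR. The log2 fold change was 0.22 ± 0.06 for BRD0705 and 0.20 ± 0.06 for CHIR (SE; edgeR adjusted p 0.0811 and 0.0579). With DESeq2 Cdkn1a passed in both comparisons, and with the feeder covariate both values fell to 0.13 (edgeR adjusted p 0.76 and 0.485). For CHIR, Cdkn1a passed in 9 of 11 other ways of processing and in 3 of 9 fits that left out 1 library. For BRD0705 it passed in 2 of the 11 and 2 of the 9.

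Among the arrest genes, 13 of 13 tested, Plk3 rose with both inhibitors and Sfn with BRD0705. Plk3, a stress-responsive polo-like kinase gene and relative of Plk2, went from 32.2, 27.7 and 29.4 CPM in control to 39.8, 35.4 and 39.6 with BRD0705 and 39.8, 36.5 and 37.2 with CHIR. All inhibitor libraries lay above all controls, with log2 fold changes of 0.36 ± 0.07 and 0.35 ± 0.07 (SE; edgeR adjusted p 0.0185 and 0.00701). Sfn, which encodes 14-3-3σ, a keeper of the G2 checkpoint, was at 79.6, 75.2 and 69.7 CPM in control, 93.8, 98.1 and 93.2 with BRD0705, and 79.1, 79.3 and 69.4 with CHIR. It rose by 0.34 ± 0.06 with BRD0705 (SE; edgeR adjusted p 0.0142) and was also higher than with CHIR, by 0.32 ± 0.06 (SE; edgeR adjusted p 0.00493). Gtse1, whose product limits p53 in G2, rose with CHIR by 0.20 ± 0.05 (SE; edgeR adjusted p 0.0228), from a mean of 342 to 393 CPM. No arrest gene passed as lower. Without BRD0705 replicate 1, control replicate 2 or control replicate 3, the BRD0705 calls on Plk3 (edgeR adjusted p 0.132, 0.0973 and 0.0829) and Sfn (0.0657, 0.0627 and 0.0925) were lost, as was that on Sfn without BRD0705 replicate 2 (0.0651). The call on Gtse1 was lost without CHIR replicate 2 (edgeR adjusted p 0.0713) or control replicate 2 (0.0902).

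Of 16 tested apoptosis targets, 1 rose with CHIR and 0 passed with BRD0705 by edgeR, where 4 had an unadjusted p under 0.05. The share of all genes with such a p for BRD0705 was 15.9%. DESeq2 called 1 of the 16 with BRD0705 and 3 with CHIR, and limma 0 and 2. Tnfrsf23, a decoy receptor gene that DESeq2 called in both, had log2 fold changes of 0.37 and 0.31 (edgeR adjusted p 0.0661 and 0.0617). Tnfrsf10b, a death receptor gene, was at 18.2, 18.8 and 18.1 CPM in control and 24.6, 24.6 and 23.9 with CHIR, a log2 fold change of 0.41 ± 0.08 (SE; edgeR adjusted p 0.00565). Pmaip1, which encodes NOXA, another trigger of apoptosis, differed between the inhibitors. It stood at 92.9, 115 and 119.8 CPM with BRD0705 and 141, 147 and 135 with CHIR, and control, at 108, 125 and 126 CPM, overlapped BRD0705 and lay below CHIR. BRD0705 was lower than CHIR by 0.37 on the log2 scale, a log2 fold change of -0.37 ± 0.08 (SE; edgeR adjusted p 0.00847). Eda2r was also lower with BRD0705 than with CHIR and Bid higher.

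In the BCL2 family, Bmf, a further trigger of apoptosis, had the clearest change of the pathway. It was at 23.8, 21.9 and 25.3 CPM in control, 21.6, 22.98 and 22.4 with BRD0705, and 15.8, 16.8 and 16.5 with CHIR. It fell with CHIR, with a log2 fold change of -0.53 ± 0.08 (SE; edgeR adjusted p 0.000427), and was higher with BRD0705 than with CHIR by 0.45 ± 0.08 (SE; edgeR adjusted p 0.00164). It passed in all 20 alternatives for both. The other 13 tested genes of the family did not pass against control, where 3 of the 14 had an unadjusted p under 0.05 with BRD0705 and 4 with CHIR, and neither DESeq2 nor limma called others. Among all genes, 15.9% and 20.5% had an unadjusted p that low. Mcl1, a survival gene, was lower with BRD0705 than with CHIR.

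Of 33 tested targets in repair and metabolism, Pltp rose with BRD0705, Lif and Slc19a2 rose with CHIR, and Trp53cor1 fell with CHIR. Lif encodes the cytokine that maintains mouse embryonic stem cells, and is a p53 target in other tissues. It was at 6.16, 4.84 and 6.603 CPM in control, 6.79, 7.68 and 6.74 with BRD0705 and 8.87, 10.6 and 9.73 with CHIR. Its log2 fold change was 0.73 ± 0.13 with CHIR (SE; edgeR adjusted p 0.00231) and 0.27 ± 0.13 with BRD0705 (SE; edgeR adjusted p 0.343), and the inhibitors differed by -0.46 ± 0.13 (SE; edgeR adjusted p 0.0332). Trp53cor1, the long noncoding RNA lincRNA-p21 next to Cdkn1a, rested on 60 counts over the control libraries, 70 with BRD0705 and 14 with CHIR, where 1 library had 1 count. Its log2 fold change was -1.96 ± 0.49 with CHIR (SE; edgeR adjusted p 0.023), and its exons overlap the abundant Srsf3 on the opposite strand. Pltp, a phospholipid transfer protein gene whose exons overlap Ctsa on the opposite strand, rose by 0.29 ± 0.06 with BRD0705 (SE; edgeR adjusted p 0.036), and Slc19a2, a thiamine transporter gene, by 0.21 ± 0.06 with CHIR (SE; edgeR adjusted p 0.0478). The CHIR call on Lif held without any 1 library, and its call between the inhibitors was lost without BRD0705 replicates 1 or 3 or CHIR replicates 2 or 3 (edgeR adjusted p 0.115, 0.1, 0.133 and 0.069). Leaving out 1 library ended the call on Trp53cor1 for CHIR replicates 1 and 2 (edgeR adjusted p 0.0797 and 0.108) and each control library (0.0756, 0.0542 and 0.0602), and DESeq2 gave it no adjusted p. That on Pltp was lost without BRD0705 replicates 1 or 2 (edgeR adjusted p 0.203 and 0.0548), CHIR replicate 2 (0.0511) or control replicates 2 or 3 (0.124 and 0.152), and with the GC and length correction (0.0682). That on Slc19a2 was lost without BRD0705 replicate 1 (edgeR adjusted p 0.053), any CHIR library (0.0869, 0.159 and 0.0563) or any control library (0.0504, 0.0763 and 0.185), with library size alone as the scaling (0.0986) and with only the groups compared (0.0506).

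Between the inhibitors, 6 of the 33 passed, 5 higher with BRD0705 and 1 lower, while 18 of the 33 were above 0. Of all tested genes, 7.77% passed in this comparison. Ephx1, an epoxide hydrolase gene, stood at 66.9, 68.2 and 64.4 CPM with BRD0705 and at 46.5, 53.9 and 50.3 with CHIR, a log2 fold change of 0.41 ± 0.07 (SE; edgeR adjusted p 0.00102). Its control libraries lay between, at 57.1, 51.2 and 57.5 CPM, and overlapped those of CHIR. Sulf2, a sulfatase gene, differed by 0.26 ± 0.05 and Cd80 by 0.51 ± 0.13 (SE; edgeR adjusted p 0.00343 and 0.0205). Steap3 and Trp53cor1 were also higher with BRD0705, and Lif was lower. The call on Cd80 was lost without BRD0705 replicate 2 or CHIR replicates 2 or 3 (edgeR adjusted p 0.0868, 0.0544 and 0.0662), and those on Ephx1 and Sulf2 held without any 1 library. With the GC and length correction the difference in Sulf2 was 0.15 (edgeR adjusted p 0.0494). Exons of Ephx1 overlap Tmem63a, those of Sulf2 overlap Ncoa3 and those of Cd80 overlap Timmdc1, each on the opposite strand. Values of other cell type markers that differ between the inhibitors are given above, and their part in these differences was not tested.

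Rpl11, a ribosomal protein that can bind and block MDM2, was the only one of 21 regulators of p53 to pass against control by edgeR. DESeq2 called 3 with BRD0705, adding Rpl5 and Rps27l, 2 further ribosomal protein genes with log2 fold changes of -0.18 and -0.38 (edgeR adjusted p 0.12 and 0.0507), and 1 with CHIR. Rpl11 fell from 507, 444 and 447 CPM to 363, 335 and 385 with BRD0705 and to 406, 383 and 376 with CHIR, with log2 fold changes of -0.37 ± 0.06 and -0.26 ± 0.06 (SE; edgeR adjusted p 0.00867 and 0.0164). All inhibitor libraries lay below all controls. The call on Rpl11 was lost without BRD0705 replicates 1 or 2 (edgeR adjusted p 0.0514 and 0.0548) in the first comparison, and without CHIR replicates 2 or 3 or control replicate 1 (0.0859, 0.0674 and 0.0919) in the second. Between the inhibitors Sirt1 was lower with BRD0705. Of 13 tested genes of the DNA damage kinases and their partners, 0 passed against control by edgeR, DESeq2 or limma, where 3 had an unadjusted p under 0.05 with BRD0705 and 2 with CHIR in edgeR. Such a p was found for 15.9% and 20.5% of all genes. Between the inhibitors Mdc1 was higher with BRD0705 by 0.33 ± 0.07 (SE; edgeR adjusted p 0.0107) and Chek1 lower. For Mdc1 the libraries without BRD0705 replicate 1 gave an edgeR adjusted p of 0.085, and those without CHIR replicate 1 gave 0.0616.

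**Figure D5:**
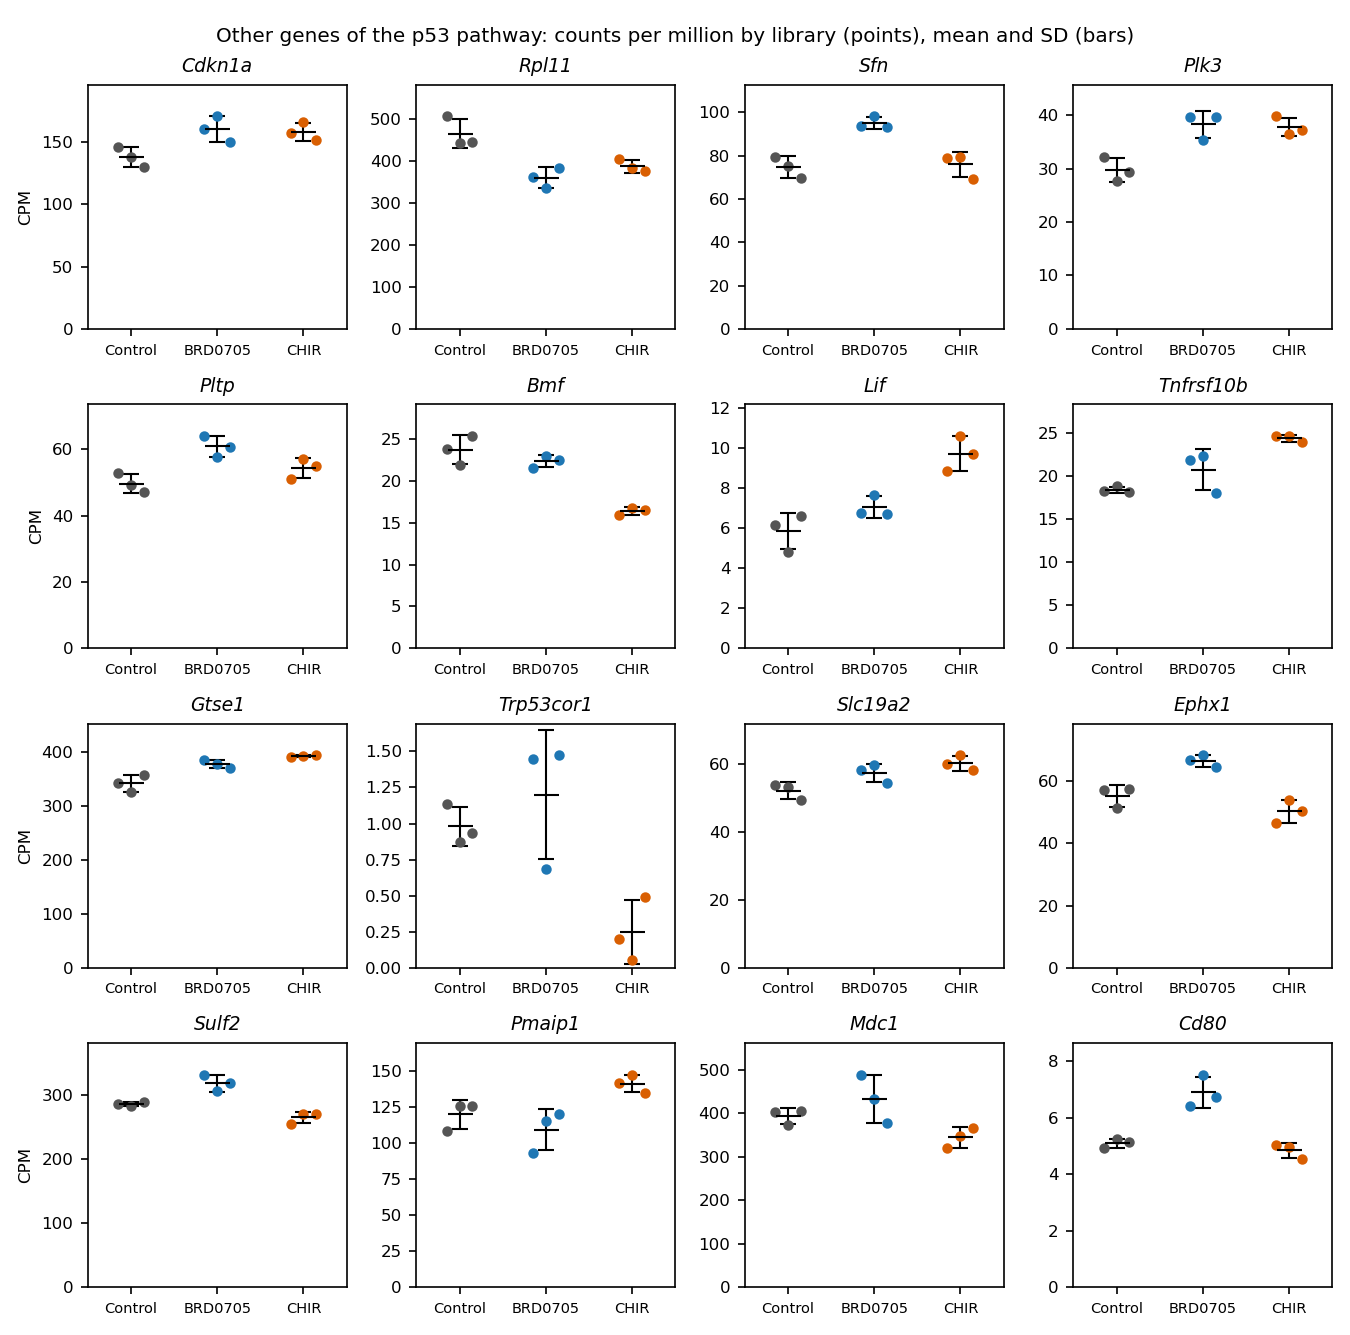
Level in CPM (vertical axes, from 0) by library of Cdkn1a and of 15 other pathway genes that passed the test in at least 1 comparison, with the mean and SD of each group as black bars. The 3 CHIR libraries of Bmf lie below all others, and those of Tnfrsf10b and Lif above all others.

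Feeder markers were higher under both inhibitors, as given above. With the feeder score as a covariate, 0 of the 110 pathway genes passed for BRD0705 by edgeR, where 10 had an unadjusted p under 0.05. Calls over all 15366 genes went from 188 to 0 in that fit, and for CHIR from 968 to 235, so the loss is not particular to the pathway. Of the 110, 2 passed for CHIR, Bmf and Rpl11. The values for CHIR that no longer passed were nearly as large for Tnfrsf10b and Lif, at 0.39 and 0.66 (edgeR adjusted p 0.0925 and 0.0614). For Plk3 they were 0.27 with each inhibitor (edgeR adjusted p 0.508 for BRD0705 and 0.163 for CHIR), and for Sfn with BRD0705 0.20 (edgeR adjusted p 0.568). The feeder score itself averaged 7.02 in control, 7.26 with BRD0705 and 7.21 with CHIR, so it is in part confounded with treatment. A fit with this covariate also takes up part of the difference between groups. Lost calls in it therefore cannot tell feeder RNA from a response to the inhibitors. The part of feeder RNA in these values was not tested further. Without BRD0705 replicate 1, 0 of the 110 genes passed for BRD0705 against control by edgeR, where 16 had an unadjusted p under 0.05, and 21 of all genes passed, and without BRD0705 replicate 2, control replicate 2 or control replicate 3, 1 passed, with 55, 37 and 51 of all genes. For CHIR against control, 4 of the 110 passed without CHIR replicate 2 and 5 without control replicate 2, with 514 and 523 of all genes. Between the inhibitors 7 passed without BRD0705 replicate 1 or CHIR replicate 2, 8 without CHIR replicate 1 and 9 without CHIR replicate 3, where calls over all genes were 616, 617, 675 and 876, against 1194 with all libraries.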

How the data were processed

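RNA sequencing libraries from 9 samples were grouped by the library names in the labels. The authors deposited raw counts per gene symbol as whole numbers, and a normalized signal. Each library's normalized values were its counts divided by 1 factor, to within 5.1e-10, and these factors matched median-of-ratios size factors to within 2.19e-11. The submitters' processing notes name RSEM, DESeq2 and mm10, with no role given. The annotation and use of strand are not given in the sources used here. Protocols name a ribosomal RNA depletion kit and the molecule label polyA RNA.

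The test on counts used R 4.3.3 and edgeR 4.0.16 (TMM, filterByExpr with a minimum count of 10, quasi-likelihood F test, 1 fit of 3 group means over 9 libraries, 6 residual degrees of freedom). Threshold was a Benjamini-Hochberg adjusted p of 0.05 over 15366 genes, two-sided. SEs are the log2 fold change over the root of F, and 95% intervals use the moderated degrees of freedom. Alternatives used DESeq2 1.42.0 and limma 3.58.1. Libraries of 1 group differed beyond sampling noise (chi-square per degree of freedom 3.37 to 7.89), so each was counted. Length and GC content came from the longest GENCODE vM39 transcript, for 98% of tested genes, and coordinates from RefSeq GRCm38.p6, the assembly of mm10. The feeder score was the mean log2 CPM of 12 markers.

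The tests and intervals were first tested on simulated data.

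The members and lists were chosen with earlier results of these data known. Genes named were the 10, Cdkn1a, and up to 8 pathway genes with the lowest p among those past the threshold in each comparison. Bid, Eda2r, Mcl1, Steap3, Sirt1 and Chek1, past the threshold, and Rpl5, Rps27l and Tnfrsf23, called by DESeq2, were outside this rule, so their naming followed their values. The alternatives were fixed with the tests and are given in the closing section.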

Additional observations from a re-analysis of the deposited data

How the results depend on the processing

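With 3 libraries a group, the 95% intervals of the 10 genes still allow differences from -22.2% to 19.4%. For the 10 genes, 600 values were computed over 20 alternatives in 3 comparisons. Of these, 59 changed sign, none of them past the threshold before or after. They came from 18 of the 30 differences, which each changed sign in at least 1 alternative. The count of the 10 that passed stayed at 0 for BRD0705 against control under every alternative. For CHIR against control it was 1 (Mdm2) with the GC and length correction, and 1 with that correction and the replicate block. Between the inhibitors it was 1 (Mdm4) with DESeq2, no low-count filter, only the groups compared, limma at both pseudocounts, and the GC and length correction with and without the replicate block. Leaving out 1 library gave 0 in all fits against control and 0 to 1 between the inhibitors, where it was 1 without control replicate 1. Of the 110 pathway genes, 4 passed for BRD0705 against control. DESeq2 gave 11, no low-count filter 9 and the feeder covariate 0, and leaving out 1 library gave 0 to 9. The fit with no low-count filter tested 26762 genes. Up to 115 listed genes could enter it, so its counts are not out of the same 110. Over all genes the calls were 188 in the main fit, 489 with DESeq2, 609 of 26762 genes with no filter, and 0 with the feeder covariate. For CHIR against control, 8 passed, against 18 with no low-count filter, 19 with the GC and length correction, 17 with that and the replicate block, 2 with the feeder covariate and 4 to 10 leaving out 1 library. Over all genes these were 1329 of 26762 genes with no filter, and 1530, 1491 and 235 of 15366 genes in the others, against 968 of 15366. Between the inhibitors, 15 passed, against 7 to 16 leaving out 1 library. With the GC and length correction 18 passed, 13 of them among the 15. With that and the replicate block 16 passed, 11 of them among the 15. Over all genes these corrections gave 1463 and 1417 calls, against 1194. The cause of these shifts was not tested. With the replicate block alone the counts were 6, 11 and 16 of the 110 and 0, 0 and 1 of the 10, Mdm4 passing at an edgeR adjusted p of 0.03. Equal replicate numbers did not mark libraries that deviate together, with correlations of -0.0897 to 0.0802 over 9 pairs, and 3 of 9 libraries correlated best with their own number. With the GC and length correction and the replicate block together, the calls between the inhibitors on Sulf2 and Mdc1 were lost (edgeR adjusted p 0.0548 and 0.0564). Of the 21 calls on pathway genes named by the rule, 10 passed in each fit that left out 1 library, and the calls on Bid, Eda2r, Mcl1, Steap3, Sirt1 and Chek1 were not checked one by one.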
